A study of Mus musculus with 4 samples.

Results

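The 41 transcripts described here are those of synapses and of mature neurons: proteins of synaptic vesicles, postsynaptic scaffolds and receptors, adhesion molecules, inhibitory markers and neuropeptides, calcium sensors and the neuronal cytoskeleton. They were taken by gene symbol, and all 41 were found among the 20089 genes of the 4 deposited tables. Expression was measured by RNA sequencing of total RNA from HT22, a cell line made from mouse hippocampal neurons (strain C57BL/6 per the labels). Every culture had been infected with a lentivirus, either a control negative one or one aimed at Neat1, the long noncoding RNA on which nuclear paraspeckles are built. Cells were grown in DMEM/F12 with 10% FBS (normal culture) or without oxygen and glucose (OGD), a culture model of ischaemia whose duration the labels do not give. This makes 4 groups of 1 library each, called control normal and knockdown normal, and control OGD and knockdown OGD, below. No difference between them has a replicate check, and no test was run.

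A chemical synapse releases transmitter from vesicles that are docked by SNARE proteins such as SNAP25 and triggered by calcium binding to synaptotagmin. On the receiving side, glutamate receptors sit in a density built on scaffolds such as PSD-95, the product of Dlg4. Mature hippocampal neurons hold these transcripts in abundance, while in most other cells the repressor REST and its partners keep many of them off. HT22 cells divide, and are known for their lack of functional ionotropic glutamate receptors.

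The libraries held between 17232866 and 20764430 reads assigned to genes, so that 1 read stood for 0.0466 to 0.0650 CPM (the read count scaled to library size with TMM factors). Neat1 itself was at 193 CPM in control normal and 121 CPM in knockdown normal, and at 74.4 CPM in control OGD and 42.1 CPM in knockdown OGD. It was thus 1.60-fold lower with its lentivirus in normal culture and 1.77-fold lower under OGD. The members took 0.626% of all reads in control normal and 0.0562% in knockdown OGD, against 0.00619% in knockdown normal and 0.0122% in control OGD. In bulk RNA, fewer cells of a type and less RNA per cell cannot be told apart.

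Of the 41 members, 39 stood higher in both control normal and knockdown OGD than in either of the other 2 libraries, so neither the lentivirus nor the culture alone orders them. The exceptions are Dlg4 and Grin2b. Control normal held the highest level for 31 members and knockdown OGD for the other 10. Knockdown normal held the lowest level for 36 members and control OGD for the other 5. The plot of member levels shows this order gene by gene. Transcripts outside the neuronal ones set the same libraries apart. A list of 8 ribosomal RNA repeat and small noncoding RNA genes summed to 17471 CPM in control normal, 42452 in knockdown normal, 54485 in control OGD and 3397 in knockdown OGD, with 8 of 8 at least 2-fold higher with the Neat1 lentivirus in normal culture and 8 of 8 lower with it under OGD. Xist, the RNA of the inactive X chromosome, had 72, 12, 16 and 211 reads in that order. Of the 5 sex-linked genes listed with it, Xist included, 3 were at least 2-fold lower and 1 higher with the Neat1 lentivirus in normal culture. Under OGD 3 were higher with it and 0 lower. Over all genes counted, 6.25% were 2-fold higher with the Neat1 lentivirus in normal culture and 16.3% lower. Under OGD the shares were 10.7% higher and 4.23% lower. The part of these ribosomal, small noncoding and sex-linked transcripts in the members' levels was not tested.

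**Figure D1:**
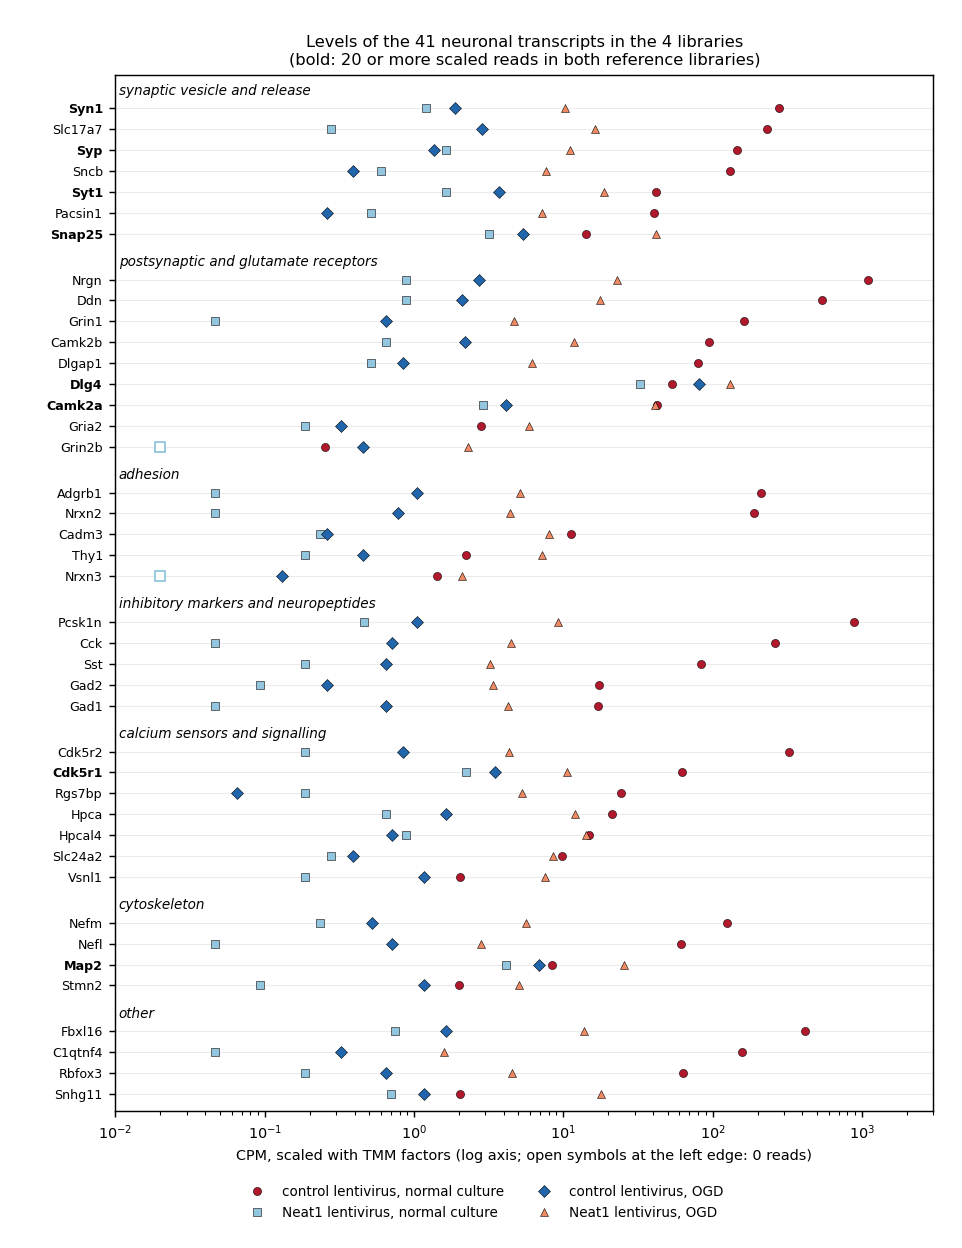
Level of each member in each library, in CPM on a log axis, 1 symbol per library and gene, grouped by role. Control normal (circles) and knockdown OGD (triangles) lie to the right of the other 2 libraries for 39 of 41 members, and Dlg4 is the only member above 30 CPM in all 4.

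Knockdown normal and control OGD were taken as reference libraries, at a threshold of 20 scaled reads in every table that holds them. Whether they show what the cells themselves express was not tested. By that threshold 8 members were called expressed in both: Snap25, Syt1, Syp, Syn1, Camk2a, Dlg4, Cdk5r1 and Map2. The other 33 fell short in at least 1 of the 2. Just inside the threshold stood Syp and Syn1, whose lowest scaled counts were 23.7 and 24.8, and just outside stood Nrgn and Ddn, both at 18.1. At 100 reads in both reference libraries Dlg4 alone remained, and at 5 reads 21 members passed. The 33 members summed to 10.3 CPM in knockdown normal and 29.8 CPM in control OGD, against 5288 CPM in control normal and 257 CPM in knockdown OGD. The threshold used the reference libraries, so the low sums of the 33 there follow in part from the division itself. The 8 members expressed in both summed to 49.5 and 107 CPM in the reference libraries, and to 648 and 290.3 CPM in control normal and knockdown OGD. Dlg4 made up most of both reference sums, with 32.6 CPM in knockdown normal and 80.5 CPM in control OGD.

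The 2 libraries rich in these transcripts did not hold them in the same proportions, and the proportions went with the base composition of the transcripts. The first 150 coding bases of 4 members, chosen after the values were seen, are shown as examples of base composition, with every G and C in capitals. Nrgn is the member with the most reads, C1qtnf4 has the highest share of G and C over the whole transcript, Gria2 the lowest, and Snap25 is a member with more reads in knockdown OGD than in control normal.
Nrgn: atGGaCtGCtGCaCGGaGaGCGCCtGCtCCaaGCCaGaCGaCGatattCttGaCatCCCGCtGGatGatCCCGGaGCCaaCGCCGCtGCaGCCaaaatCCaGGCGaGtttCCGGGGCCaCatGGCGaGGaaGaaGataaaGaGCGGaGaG
C1qtnf4: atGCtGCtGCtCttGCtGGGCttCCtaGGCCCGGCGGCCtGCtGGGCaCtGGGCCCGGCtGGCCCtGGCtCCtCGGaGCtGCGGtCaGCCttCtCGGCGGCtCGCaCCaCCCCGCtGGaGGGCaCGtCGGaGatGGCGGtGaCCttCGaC
Gria2: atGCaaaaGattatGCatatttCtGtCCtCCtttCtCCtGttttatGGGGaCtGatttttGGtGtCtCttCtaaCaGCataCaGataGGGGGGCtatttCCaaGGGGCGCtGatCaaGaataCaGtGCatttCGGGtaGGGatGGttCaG
Snap25: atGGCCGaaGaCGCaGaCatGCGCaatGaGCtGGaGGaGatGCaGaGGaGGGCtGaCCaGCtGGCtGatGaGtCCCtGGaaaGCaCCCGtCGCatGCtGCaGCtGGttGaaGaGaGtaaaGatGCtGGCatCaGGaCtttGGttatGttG
They were read from the GENCODE release M21 transcripts (GRCm38), each from the start codon of the longest coding transcript. Nrgn (chr9:37544492-37552904, minus strand) has 89 G or C among these bases, or 59.3%. C1qtnf4 (chr2:90885860-90890525, plus strand) has 108, or 72%, and Gria2 (chr3:80681450-80802835, minus strand) has 66, or 44%. Snap25 (chr2:136713453-136782428, plus strand) has 83, or 55.3%, so over these bases it is close to Nrgn. Over the whole transcript, G and C make up 58.6% in Nrgn, 70.7% in C1qtnf4, 36.8% in Gria2 and 43.4% in Snap25. C1qtnf4 was 99.9-fold higher in control normal than in knockdown OGD (70.2 to 147) and Nrgn 47.8-fold (43.5 to 52.5), whereas Gria2 was 2.09-fold lower (1.51 to 2.94) and Snap25 2.96-fold lower (2.58 to 3.41). The ranges given with folds are exact 95% intervals that cover counting error only, and PCR copies were counted as reads.

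The presynaptic members were present mainly in control normal. Slc17a7, the vesicular transporter that loads glutamate, had 4528 reads in control normal, 6 in knockdown normal, 44 in control OGD and 319 in knockdown OGD. The same order of libraries held 277, 68, 82 and 819 reads of Snap25, the SNARE protein of the plasma membrane. Syt1, the calcium sensor of release, had 822, 35, 57 and 369. Snap25 was thus the presynaptic member with its highest level in knockdown OGD, and the other 6 had theirs in control normal. Syp, a membrane protein of the vesicle, had 2855, 35, 21 and 218 reads in that order. Syn1, which tethers vesicles to actin, had 5491, 26, 29 and 201. Sncb, or beta-synuclein, had 2578, 13, 6 and 151, and Pacsin1, an endocytic adaptor, had 795, 11, 4 and 140. All 7 were at least 2-fold lower with the Neat1 lentivirus in normal culture and at least 2-fold higher with it under OGD. Over all genes counted, 16.3% were lower in the first case and 10.7% higher in the second. Slc17a7 was 827-fold lower (379.5 to 2254) in the first case and 5.70-fold higher (4.15 to 8.0) in the second, Snap25 4.46-fold lower (3.41 to 5.91) and 7.85-fold higher (6.25 to 9.97).

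Among the postsynaptic members, Nrgn, a calmodulin-binding protein of dendritic spines, had 21469 reads in control normal, 19 in knockdown normal, 42 in control OGD and 449 in knockdown OGD. Ddn, or dendrin, had 10665, 19, 32 and 344 reads in the same order. Dlgap1, a partner of PSD-95, had 1563, 11, 13 and 120. These 3 show the commonest pattern, with control normal far above the rest and knockdown OGD second. The kinase subunits encoded by Camk2a and Camk2b assemble into 1 enzyme, CaMKII, yet differed in their libraries. Camk2a had 828, 62, 64 and 809 reads, so that control normal and knockdown OGD were level at a ratio of 1.02 (0.93 to 1.13). Camk2b had 1865, 14, 34 and 232, which put control normal 8.03-fold higher (7.0 to 9.24).

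The glutamate receptor subunits differed from each other. Grin1, the obligatory NMDA receptor subunit, had 3161, 1, 10 and 92 reads in control normal, knockdown normal and, under OGD, control and knockdown. Grin2b, its partner in the forebrain, had 5, 0, 7 and 45. Gria2, the AMPA receptor subunit that limits calcium entry, had 55, 4, 5 and 115. Grin1 was therefore 34.3-fold higher (27.9 to 42.7) in control normal than in knockdown OGD, while Grin2b was 9.01-fold lower (3.59 to 29.1). Dlg4 stood apart from the other members, with 1048, 700, 1238 and 2563 reads. It was 1.64-fold lower (1.49 to 1.81) with the Neat1 lentivirus in normal culture and 1.63-fold higher (1.52 to 1.74) with it under OGD, both under 2-fold.

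Of the adhesion molecules, the presynaptic neurexins again divided. Nrxn2 had 3723 reads in control normal, 1 in knockdown normal, 12 in control OGD and 86 in knockdown OGD. Nrxn3 had 28, 0, 2 and 41, which makes it at least 10.2-fold lower in knockdown normal than in control normal when 3 reads stand for the 0. Adgrb1, a postsynaptic adhesion receptor, had 4153, 1, 16 and 100 reads. Nrxn2 and Adgrb1 were over 40-fold higher in control normal than in knockdown OGD, at 43.2-fold (34.9 to 54.2) and 41.5-fold (34.0 to 51.1). Nrxn3 was at 0.68-fold (0.41 to 1.13), an interval that holds 1. Cadm3 had 221, 5, 4 and 157 reads and Thy1, a surface glycoprotein of projection neurons, 44, 4, 7 and 142, so that Thy1 was 3.23-fold lower (2.29 to 4.64) in control normal than in knockdown OGD.

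The inhibitory markers and neuropeptides were all higher in control normal than in knockdown OGD, by at least 2-fold in 5 of 5, beside 22.4% of all genes counted. Gad1 and Gad2, the enzymes that make GABA, had 334 and 338 reads in control normal, 1 and 2 in knockdown normal, 10 and 4 in control OGD, and 83 and 66 in knockdown OGD. The peptide precursor Cck had 5133, 1, 11 and 88 reads in the same order, and Sst, the precursor of somatostatin, 1651, 4, 10 and 63. Pcsk1n, which codes for an inhibitor of a prohormone convertase, had 17385, 10, 16 and 181. Pcsk1n was 95.9-fold higher (82.8 to 112) in control normal than in knockdown OGD, with C1qtnf4 the highest of the members by this fold.

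The promoters of Sst and Syn1 hold the sequence of the cyclic AMP response element, to which CREB can bind. They are shown as the only member windows that hold it, chosen after the values were seen, with the element TGACGTCA in capitals, 5′ to 3′ on the strand of the gene (RefSeq, GRCm38.p6).
Sst (chr16:23890859-23890918, minus strand): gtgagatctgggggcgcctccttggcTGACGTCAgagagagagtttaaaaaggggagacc
Syn1 (chrX:20921044-20921103, minus strand): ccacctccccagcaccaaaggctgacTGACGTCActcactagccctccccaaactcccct
The element begins 48 bases before the start site in Sst and 159 before it in Syn1. Windows from 250 bases before to 50 after a start site were held for 29 of the 41 members, and the element, which reads the same on both strands, was in 2 of them and in 2.03% of 27025 genes. The element RE1, which REST binds, has a left part CAGCACC and a right part GGACAG, both searched on both strands. The left part was found in Dlg4 and Syn1 among the members, and in 8.14% of all genes. The right part was found in 14 of the 29 members with windows and in 24.7% of all genes. Those 29 members had 39 windows between them, and the number of windows per gene was not compared with that of all genes. A match here is a run of letters and not a bound site.

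The neuronal calcium sensors hold 3 related genes among the members. Hpca, or hippocalcin, had 414, 14, 25 and 235 reads in the order used above. Hpcal4 had 292, 19, 11 and 279. Vsnl1 had 40, 4, 18 and 148. Control normal over knockdown OGD thus went from 1.76-fold (1.5 to 2.07) in Hpca through 1.05-fold (0.88 to 1.24) in Hpcal4 to 3.71-fold lower (2.60 to 5.39) in Vsnl1. The activators of the kinase CDK5 were both far higher in control normal, with 1217, 48, 54 and 207 reads for Cdk5r1 and 6369, 4, 13 and 85 for Cdk5r2. Cdk5r1 was 5.87-fold higher (5.06 to 6.84) in control normal than in knockdown OGD and Cdk5r2 74.8-fold (60.4 to 93.8). Slc24a2, an exchanger of sodium for calcium, had 192, 6, 6 and 166 reads, and Rgs7bp, which anchors RGS proteins at the membrane, 474, 4, 1 and 104. All 7 members of this role were at least 2-fold lower with the Neat1 lentivirus in normal culture and at least 2-fold higher with it under OGD. The shares of all genes counted were 16.3% and 10.7%.

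In the cytoskeleton, Map2, a microtubule protein of dendrites, had 164, 89, 105 and 499 reads in the same order of libraries, the second member after Dlg4 by reads in both reference libraries. Its level with the Neat1 lentivirus was 2.02-fold lower (1.55 to 2.64) in normal culture, which the 0.5 CPM added to each level brings to a log2 ratio of -0.93, just under 2-fold. Nefl had 1201, 1, 11 and 55 reads and Nefm 2442, 5, 8 and 110. These neurofilament genes lie on opposite strands and share 1108 exon bases. No source used here says whether the authors' counting used strand, and their reads may not be separable. Stmn2, a regulator of axonal microtubules, had 39, 2, 18 and 99 reads. Map2 and Stmn2 were higher in knockdown OGD than in control normal, by 3.05-fold (2.55 to 3.66) and 2.54-fold (1.74 to 3.78), and the neurofilaments were lower there, by 21.8-fold (16.6 to 29.1) and 22.2-fold (18.3 to 27.1).

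Rbfox3, which encodes the nuclear antigen NeuN used to mark mature neurons, had 1238 reads in control normal, 4 in knockdown normal, 10 in control OGD and 89 in knockdown OGD. Snhg11, a host gene of small nucleolar RNA, had 40, 15, 18 and 352. Fbxl16 had 8161, 16, 25 and 270 reads and C1qtnf4, a secreted protein of the C1q family, 3101, 1, 5 and 31. Snhg11 was 8.81-fold lower (6.34 to 12.5) in control normal than in knockdown OGD, close to the 9.01-fold of Grin2b. Of all members, 17 have exons that overlap another annotated gene, and in 7 the other gene had reads. Beside the neurofilaments, the largest overlap with any gene was 1307 bases of Grin1 with Grin1os, which had 0 reads in all libraries. The largest with a gene that had reads was 875 bases of Syp with Gm14703, which had between 0 and 31.

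Counted over the members, the Neat1 lentivirus in normal culture went with lower levels: of 40 members that reached 20 reads in the higher library, 38 were at least 2-fold lower and 0 higher, with a median log2 ratio of -5.72. Over all 14554 genes with that many reads, 16.3% were 2-fold lower and 6.25% higher, with a median of -0.03. Grin2b was not counted for its reads, and Dlg4 and Map2 were under 2-fold. In the authors' deposited table of this comparison, 31 of the 41 members were labelled Down and 0 Up, beside 4.69% of all its genes labelled Down.

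Under OGD the direction was the opposite. All 41 members had the reads to be counted, 40 were at least 2-fold higher with the Neat1 lentivirus and 0 lower, and the median log2 ratio was 2.30. Over 13388 genes, 10.7% were higher and 4.23% lower. Dlg4 was the member under 2-fold. The authors' deposited table labelled 21 members Up and 0 Down, beside 0.746% of its genes labelled Up. Of 40 members counted in both cultures, 38 were 2-fold lower in normal culture and 2-fold higher under OGD, which held for 4.87% of 12856 genes. These knockdown comparisons share no library.

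**Figure D2:**
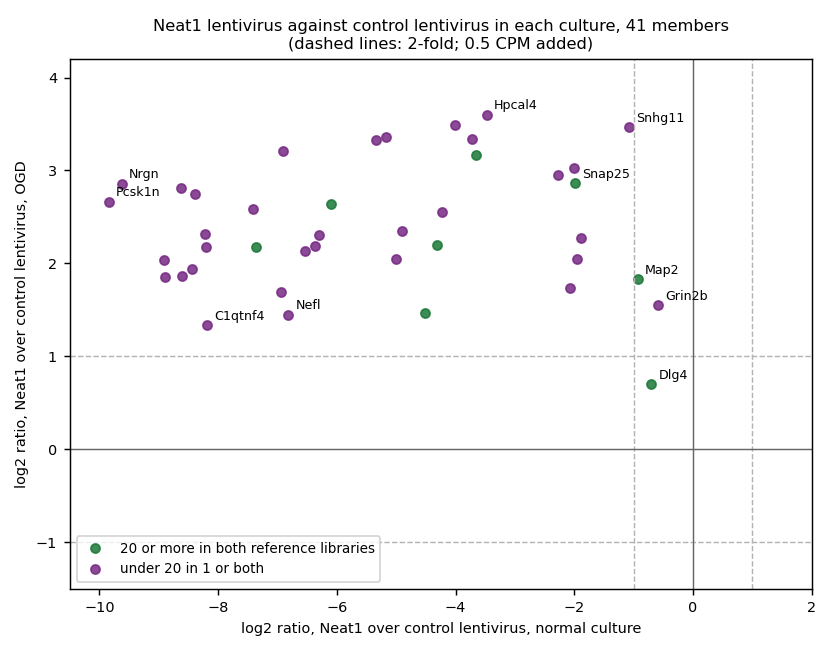
Log2 ratio of the Neat1 over the control lentivirus in normal culture (horizontal axis) and under OGD (vertical axis), 1 point per member, coloured by expression in the reference libraries, with dashed lines at 2-fold. Most points lie left of the vertical and above the horizontal dashed lines, and Dlg4 lies inside both.

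Read by culture, the same 4 libraries gave the matching picture. In control cells, 35 of 40 members were at least 2-fold lower under OGD than in normal culture and 0 higher, with a median log2 ratio of -5.56, where 22.2% of 14101 genes were lower and 9.36% higher. Dlg4, Map2, Vsnl1, Stmn2 and Snhg11 were under 2-fold. In knockdown cells, 41 of 41 were at least 2-fold higher under OGD, with a median of 3.18, where 19.1% of 14071 genes were higher and 16.9% lower. The authors' deposited tables labelled 30 members Down in control cells, beside 3.18% of genes, and 10 Up in knockdown cells, beside 1.18%. Each of these comparisons shares a library with each knockdown comparison, so they are not further evidence.

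With 0.5 CPM added to each level, the fold by which members stood higher in knockdown OGD varied far less than the fold by which they stood higher in control normal. Log2 ratios of the Neat1 lentivirus under OGD ran from 0.70 to 3.60, and their middle 50% from 1.93 to 2.86. Those in normal culture ran from -9.84 to -0.71, and their middle 50% from -8.19 to -3.61. The added CPM narrows both ranges, since the members' median was 0.85 CPM in control OGD and 0.28 in knockdown normal. Without it, folds under OGD ran from 1.63 in Dlg4 to 81.7 in Rgs7bp, which had 1 read in control OGD. In normal culture, members with reads in both libraries ran from 1.64-fold lower in Dlg4 to 5623-fold lower in Cck, which had 1 read in knockdown normal. Length-normalised levels (FPKM, as deposited) can be compared between genes. By these, control normal was led by Nrgn at 993, Cck at 582, Pcsk1n at 472, Sst at 229 and Ddn at 163. Knockdown OGD was led by Dlg4 at 83.2, Snap25 at 27.7, Nrgn at 22.2, Camk2a at 14.8 and Hpca at 11.9. Both reference libraries were led by Dlg4 (29.5 and 37.9) and then Snap25 (2.10 and 2.99). Across the 41 members, the rank order of FPKM was alike in knockdown OGD and the reference libraries, with Spearman's rho of 0.83 with knockdown normal and 0.87 with control OGD, and 0.79 between those 2. Control normal had 0.27, 0.41 and 0.33 with knockdown normal, control OGD and knockdown OGD. These points share libraries and gene lengths, and the coefficients are descriptions.

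Control normal and knockdown OGD, which differ in both lentivirus and culture, were compared directly because the threshold on expression used neither. Among the 33 members not expressed in both reference libraries, the median log2 ratio of control normal over knockdown OGD was 3.60, and single members ran from -2.86 to 6.51. Of these, 22 were at least 2-fold higher in control normal and 5 in knockdown OGD. Among the 8 expressed in both, the median was 0.58, with 4 higher in control normal and 3 in knockdown OGD. Over 14482 genes the median was 0.13, with 22.4% higher in control normal and 13% in knockdown OGD.

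The base composition of the transcript ordered the members in this ratio, an analysis chosen after the values were seen. In the 14 members with the least G and C (36.8% to 48.4%), the median log2 ratio of control normal over knockdown OGD was -1.05, and 4 were 2-fold higher in control normal. In the middle 13 (48.9% to 57.4%) it was 2.95, with 9 higher. In the 14 with the most (57.8% to 70.7%) it was 4.89, with 13 higher and Hpca, at 0.79, the exception. Spearman's rho of the ratio with transcript G and C was 0.80 over the 41 members, and 0.78 over the 24 with at least 100 reads in both libraries. For coding bases alone it was 0.82 and for the 3′ untranslated region 0.59, while for transcript length it was -0.38.

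**Figure D3:**
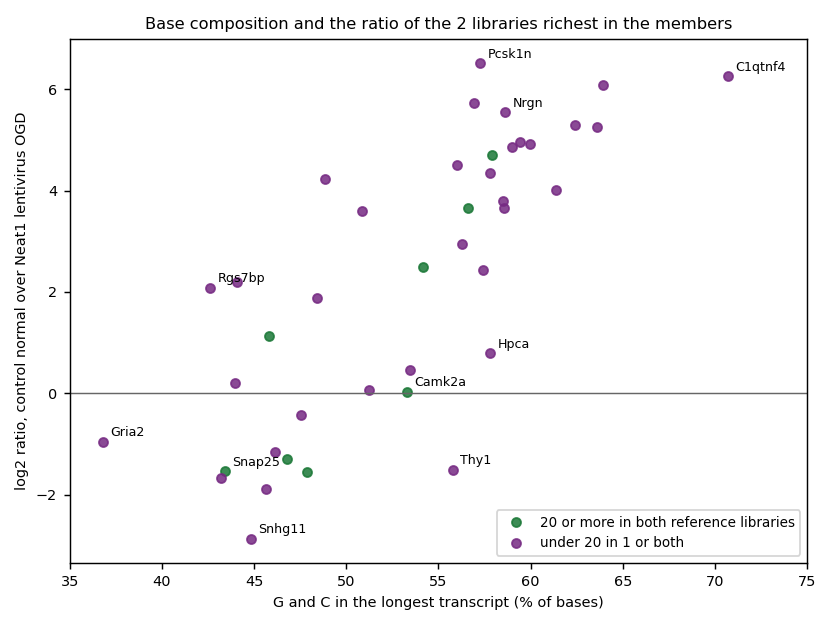
G and C content of each member's longest transcript (horizontal axis, % of bases) against the log2 ratio of control normal over knockdown OGD (vertical axis), 1 point per member. Members up to 48.4% lie between -2.86 and 2.20, those from 57.8% lie between 0.79 and 6.25, and Thy1, at 55.8%, lies at -1.5.

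Among the members, this feature went with the comparisons that hold control normal. With transcript G and C, Spearman's rho was -0.79 for the Neat1 lentivirus in normal culture and -0.79 for OGD in control cells, which share control normal. It was -0.16 for the Neat1 lentivirus under OGD and 0.0026 for OGD in knockdown cells. For genes that are no members the coefficients were smaller. Over 70 other genes of the neuronal lists, all under 20 reads in both reference libraries, rho of control normal over knockdown OGD with G and C was 0.65. Over 514 other genes with so few reads there and at least 20 in the other 2 libraries it was 0.49, and over 8979 genes with at least 100 reads in every library it was 0.14. The 70 and the 514 genes shared the members' pattern over comparisons. In that order, rho was -0.58 and -0.43 for the Neat1 lentivirus in normal culture and -0.63 and -0.46 for OGD in control cells. It was 0.06 and 0.05 for the Neat1 lentivirus under OGD, and -0.12 and -0.06 for OGD in knockdown cells. In the 8979 genes the pattern was another one. There rho was -0.19 for the Neat1 lentivirus under OGD, -0.15 for it in normal culture and -0.04 for OGD in control cells. Genes of 1 library share its depth and its preparation, so the points are not independent, and the part of base composition in the members' ratios was not tested.

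Other genes of the synapse, from lists of transcripts outside the 41, went the same way in smaller numbers. Beside them, 16.3% of all genes counted were 2-fold lower in normal culture and 10.7% higher under OGD. Of 33 other vesicle and release genes counted, 26 were 2-fold lower with the Neat1 lentivirus in normal culture and 0 higher, and of 34 counted under OGD 19 were higher and 0 lower. Dnm1, the GTPase of vesicle scission, had 6514, 1413, 865 and 1495 reads, and Vamp2, the vesicle SNARE, 2655, 811, 949 and 881. Of the other postsynaptic genes 18 of 23 were lower in normal culture and 13 of 22 higher under OGD, of other glutamate receptor genes 14 of 15 and 7 of 10, and of GABA and glycine genes 12 of 13 and 12 of 14. Voltage-gated channels gave 24 of 26 and 19 of 23, neuronal RNA-binding proteins 12 of 12 and 8 of 10, and neuropeptide genes 13 of 15 and 8 of 12. For synaptic adhesion it was 17 of 20 and 10 of 18, for the neuronal cytoskeleton 14 of 24 and 11 of 24, and for calcium sensors 4 of 9 and 5 of 9. Against these directions stood 1 calcium sensor in normal culture, and 1 adhesion gene and 2 cytoskeletal genes under OGD. The median log2 ratio of a list ran from -3.49 for glutamate receptors to -0.35 for calcium sensors in normal culture, and from 0.39 for the cytoskeleton to 1.69 for both voltage-gated channels and neuronal RNA-binding proteins under OGD. Several of these genes had many reads in every library, such as Baiap2 (2370, 1680, 2805 and 3029) and Stmn1 (3407, 3277, 4404 and 4878).

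Repressors of neuronal genes did not differ by 2-fold in any of the 4 comparisons, in 0 of 16 each. Rest had 594 reads in control normal, 748 in knockdown normal, 560 in control OGD and 659 in knockdown OGD. Ptbp1, which blocks neuronal splicing, had 11055, 11606, 14561 and 15791. Housekeeping genes were under 2-fold in 12 of 12 for both knockdown comparisons. With OGD, 2 of 12 were higher in control cells, and 1 was higher and 1 lower in knockdown cells. Over all genes counted, OGD went with 9.36% higher in control cells, and with 19.1% higher and 16.9% lower in knockdown cells.

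Oligodendrocyte and blood genes moved with the members, and markers of other brain cells did so in part. Of 9 oligodendrocyte markers counted, 8 were 2-fold lower with the Neat1 lentivirus in normal culture, and of 5 counted under OGD 4 were higher. Their 10 genes summed to 295 CPM in control normal, 27.5 in knockdown normal, 34.8 in control OGD and 105 in knockdown OGD. Mbp, the myelin basic protein, had 2368, 83, 97 and 924 reads, and Olig1 had 1622, 1, 2 and 16. Both were highest in control normal and second in knockdown OGD. The 5 blood genes, led by the alpha-globin Hba-a1 with 592, 3, 2 and 33 reads, summed to 43.7, 0.33, 0.46 and 5.62 CPM. Of 8 astrocyte markers 3 of 5 counted were lower in normal culture and 6 of 7 higher under OGD, with sums of 183, 72.2, 243 and 249 CPM. Slc1a2, the astrocytic glutamate transporter, had 1412, 30, 83 and 582 reads, but Gja1, the most abundant of the list, had 1704, 1219, 3579 and 3700, and Slc1a3 had 204, 240, 17 and 162.

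The 8 microglial markers summed to 125, 91.4, 87.4 and 109 CPM in the same order of libraries, with 2 of 5 counted 2-fold lower with the Neat1 lentivirus in normal culture and 0 of 3 higher with it under OGD. The 8 endothelial and vascular ones summed to 60.9, 27.2, 38.9 and 28.1 CPM, with 1 of 3 lower in normal culture and 2 of 4 higher under OGD. The shares over all genes counted were 16.3% lower and 10.7% higher. Cldn5 had 326, 1, 0 and 15 reads, whereas Pecam1 had 7, 5, 2 and 43, and Pdgfrb had 616, 414, 507 and 358. Markers of brain regions differed among themselves. Striatal genes summed to 255, 1.72, 4.94 and 21.6 CPM, and Ppp1r1b, a phosphatase inhibitor of striatal neurons, had 2556, 5, 22 and 120 reads. Genes of cortex and hippocampus summed to 242, 60.0, 114 and 109 CPM, and Tbr1, a factor of cortical glutamatergic neurons, had 943, 0, 0 and 36 reads. Genes of thalamus, hypothalamus and midbrain summed to 15.2, 19.7, 8.65 and 3.98 CPM, and those of spinal cord and hindbrain to 7.55, 7.08, 5.46 and 1.84. The 8 fibroblast or mesenchymal markers summed to between 11022 and 16047 CPM in every library, with Lgals1 at 129349, 115964, 69406 and 62048 reads. The part of these markers' sources in the members' levels was not tested. Of the pan-neuronal markers, Rbfox3 and Nefl were low in the reference libraries, with 4 and 10 reads and 1 and 11. So were Nefm (5 and 8), Stmn2 (2 and 18), Thy1 (4 and 7) and Nefh (4 and 0). Elavl3 had 7 reads in knockdown normal and 33 in control OGD, so it fell short in 1 of these libraries. Snap25 (68 and 82), Map2 (89 and 105), Syt1 (35 and 57), Syp (35 and 21) and Syn1 (26 and 29) passed the threshold there. That threshold used those same libraries, so these reads are no separate check of the label. Elavl4 was low in all 4, with 2, 0, 5 and 2 reads, while Tubb3 had 1052, 407, 830 and 419.

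**Figure D4:**
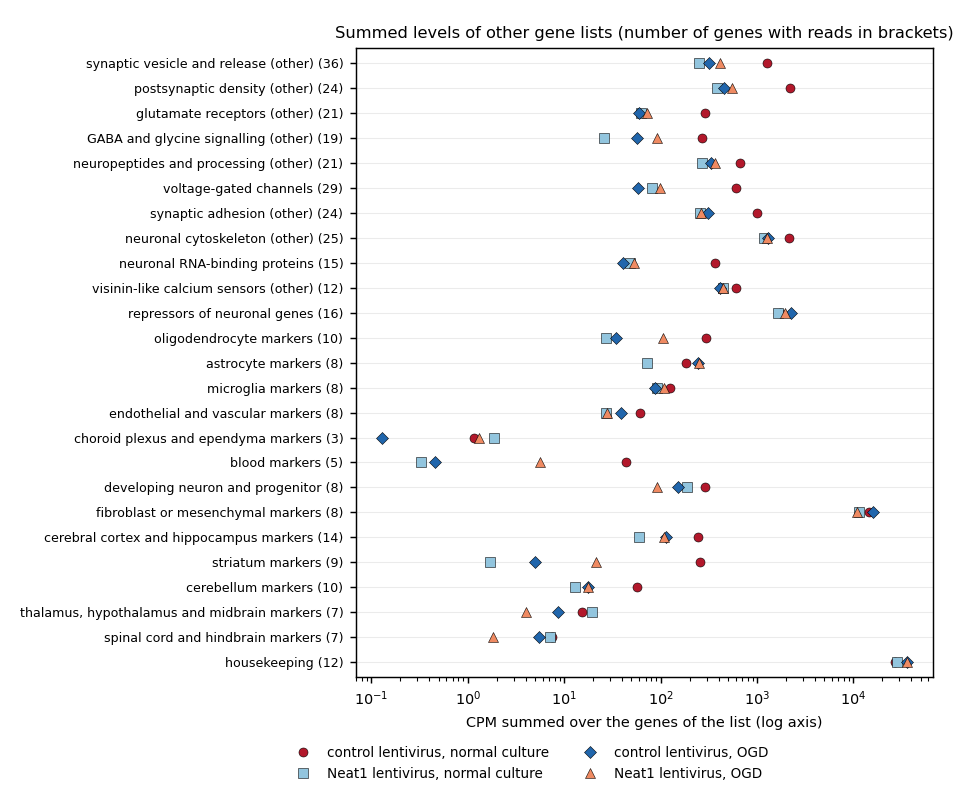
CPM summed over the genes of each list outside the 41 (log axis), 1 symbol per library. Lists of neuronal, oligodendrocyte, blood and striatal genes have control normal at the far right, and the repressor, fibroblast and housekeeping lists have their 4 symbols close together.

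The genes most like the 33 members in their profile over the 4 libraries were Rims1, Scn4b, Wipf3, Adcy1, Tspoap1, Mapk8ip2, Rph3a, Snap91, Camkv and Nptx1. Likeness was the Euclidean distance of centred log2 CPM to the mean profile of those members, over 14966 other genes and 4 libraries. Their distances ran from 0.17 for Rims1 to 0.46 for Nptx1, against a median of 2.00 among the 33 members, of which Camk2b at 0.47 was nearest and Grin2b at 4.41 farthest. Rims1, a scaffold of the presynaptic active zone, had 485 reads in control normal, 0 in knockdown normal, 4 in control OGD and 65 in knockdown OGD. Scn4b, a sodium channel subunit, had 710, 5, 8 and 116.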

How the data were processed

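Total RNA of 4 HT22 cultures, 1 library per group, was taken with TRIzol, fragmented, turned into cDNA whose single strand was marked by deoxy-UTP, and enriched by PCR, per the labels' protocols. TopHat2 and the build mm10 are named in the submitters' processing notes. The sources used here do not give the counter, its annotation or its use of strand. The authors deposited 4 tables of 2 libraries each, with mean counts scaled by size factors (used here as a signal, per the file headers), their own calls, and values read from their size and columns as FPKM. The unit of the deposited FPKM columns is not named in the headers.

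Dividing the deposited signal by what 1 read is worth gave back whole reads: 100% of values came out whole at a tolerance of 1e-06, and both tables of a library gave the same reads. Genes missing from a library's tables were taken as 0 reads. Of 20089 genes, 177 had no name. TMM factors (edgeR 4.0.16 in R 4.3.3, no test) were 1.05, 1.03, 0.893 and 1.03 for control and knockdown cells in normal culture and then under OGD. Ratios are log2 of CPM with 0.5 CPM added, which understates the ratio of low genes, and a gene was counted at a 2-fold ratio if the higher library held 20 reads or more. Folds and 95% intervals (exact conditional binomial) were computed without the added CPM in Python 3.11.15 with scipy 1.17.1, numpy 2.4.6 and pandas 2.3.3, and figures drawn with matplotlib 3.10.9. The counting rule was checked on simulated data. Names, coordinates and base composition came from GENCODE mouse release M21 (GRCm38), promoters from RefSeq (GRCm38.p6).

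The members and the 27 other gene lists were chosen with earlier results of these data known. All 41 members are named, up to 4 genes of another list by their reads (some genes are not reported here), and the 10 nearest genes by profile. Named outside that rule, after their values were seen, were Rest, Tubb3, Nefh and Elavl4. No protein sequence was used here.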

Additional observations from a re-analysis of the deposited data

Results flagged for a closer look

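The direction of the difference between the Neat1 and the control library was opposite in the 2 cultures for most members. Of 40 members counted in both, 38 were at least 2-fold lower with it in normal culture and at least 2-fold higher with it under OGD, and the difference was not tested, since each group holds 1 library. Nrgn, for example, had 21469 reads with the control and 19 with the Neat1 lentivirus in normal culture, and 42 and 449 under OGD. The 3 members outside this count were Dlg4, Grin2b and Map2. Over all genes counted in both cultures the same held for 626 of 12856, or 4.87%.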

How the results depend on the processing

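The counts of members past 2-fold kept their direction and stayed within 1.5 times their value when TMM gave way to total counts or to median-of-ratios factors, when 2 or 0.1 CPM was added, when no floor or 100 reads was required, and when FPKM as deposited took the place of reads. They ran from 32 to 38 lower with the Neat1 lentivirus in normal culture, from 27 to 40 higher with it under OGD, from 32 to 35 lower under OGD in control cells and from 28 to 41 higher under OGD in knockdown cells, the lowest of each under a floor of 100 reads, which leaves fewer members to count. The number of members expressed in both reference libraries was 8 at 20 whole reads or at 1 CPM in each, but 1 at 100 whole reads and 21 at 5, so this division depends on the threshold. With the division at 100 reads, the median log2 ratio of control normal over knockdown OGD in the members not expressed in both was 2.73, in place of 3.60, since 40 members then enter it. Spearman's rho with base composition, added after the data were seen, stayed between 0.78 and 0.81 under its 6 alternatives. No paired analysis was possible because each group holds 1 library, and for the same reason no library could be left out. Counting error limits the folds of members with 0 to 5 reads in a library.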
